A study of Mus musculus with 4 samples.

Results

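The genes described here are 45 genes of the lysosome and of the vacuolar ATPase, the proton pump that acidifies it. They were chosen by name, with earlier results of these data known. The list comprises 9 cathepsins and related proteases, 14 other hydrolases and their cofactors and 8 membrane proteins and lipid exporters. It also holds 12 subunits or accessory proteins of the vacuolar ATPase (V-ATPase) and 2 transcription factors of lysosomal genes. Each name matched 1 of the 55359 Ensembl gene identifiers in the counts table, and all 45 passed the filter on low counts, as did 14637 genes in all. The cells were T8, a line of B progenitor leukemia cells grown out of the primary tumor of 1 *Irf4*-/- mouse, so that every library carried the *Irf4* deletion and came from 1 line. T8 cells were transduced with a retrovirus (RV) that encodes GFP alone (EV-RV, 2 libraries) or GFP together with IRF4 (IRF4-RV, 2 libraries). Bulk RNAseq was performed on the day after transduction, on cells that the study describes as still viable. The study reports that cells with IRF4-RV were gradually lost over time, and the part of this loss in the differences was not tested. The comparison asks which transcripts differ once the missing factor is put back into the leukemia cells. The titles and the tissue label name T8, while the protocol text in the labels names another line, T11, and the libraries were used as T8.

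Lysosomes are acidic organelles in which proteins, lipids, glycans and nucleic acids delivered by endocytosis, phagocytosis or autophagy are broken down. The V-ATPase pumps protons into them, acid hydrolases do the degradation, and proteins of the limiting membrane protect it, export the products and signal nutrient supply. In B lineage cells, the same compartment processes antigen for loading onto MHC class II. The transcription factors TFEB and TFE3 are known to bind E-box elements of the CLEAR type in front of many lysosomal genes, and IRF4 is known to bind DNA with ETS or AP-1 family partners or at repeats of the GAAA core.

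Total counts were 31686715 and 31230223 in the libraries of EV-RV and 34771970 and 37817752 in those of IRF4-RV. At these depths 3 counts correspond to between 0.0793 and 0.0961 CPM, which are counts relative to library size, and this limit covers counting error only. Library sizes were scaled with TMM factors of 0.964 to 1.05. *Irf4* went from 241.5 ± 0.584 CPM (SD, n = 2) with EV-RV to 2657 ± 234.1 CPM (SD, n = 2) with IRF4-RV, as the labels say, with reads of the vector and of the locus counted together. The EV-RV libraries of this *Irf4*-/- line held 8070 and 7600 *Irf4* counts. Counts per gene do not show from which part of the gene these came, and the deleted part was not examined here. Of the B progenitor markers, *Cd79a*, *Cd79b*, *Pax5* and *Ebf1* were counted at least 3316 times in each library, and *Rag1* at most 1 time. Of the 8 such markers tested, 3 were called lower with IRF4-RV. *Vpreb1* and *Igll1*, which encode the surrogate light chain, fell by 1.49 and 1.30 in log2 units, and *Dntt*, the terminal transferase, by 1.55 (edgeR adjusted p = 3.82e-05, 5.95e-05 and 0.00575). Differences were tested with edgeR's quasi-likelihood test over all 14637 genes with Benjamini-Hochberg adjustment, and a gene was called at an adjusted p below the study's false discovery rate (FDR) of 0.1. A log2 fold change is IRF4-RV against EV-RV, so that positive values are higher with IRF4-RV. With 2 libraries per group, which the labels name biological replicates of 1 line, the p-values measure only the spread between these libraries.

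The lysosome and V-ATPase genes were called higher with IRF4-RV in 24 of 45 cases (53.3%), *Grn* by 10.2-fold and most others by small factors, and lower in 3 (6.67%), while 16.0% of all genes tested were called higher and 13.7% lower. In either direction 27 of 45 (60%) were called, against 29.7% of all genes. Shares over all genes, here and below, were not matched for level, and 40 of the 45 genes had a mean above 5 CPM. With a filter of at least 1 CPM in 2 libraries, 4398 of 12475 genes tested were called, and 27 of the lysosome genes. The median log2 fold change of the 45 genes was 0.33, with a range from -0.35 for *Tfeb* to 3.35 for *Grn*, and the median of all genes tested was 0.0073. In 35 of the 45 genes (77.8%) the values of the EV-RV and IRF4-RV libraries did not overlap, which was the case for 61.3% of all genes. By group, 8 of 14 hydrolases and cofactors, 5 of 9 cathepsins, 5 of 8 membrane proteins and 6 of 12 V-ATPase genes were called higher, and neither transcription factor was. In bulk RNA, a change in the number of cells of a type and a change in RNA per cell cannot be told apart.

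Only 3 of the 24 genes called higher, *Grn*, *Ctsh* and *Psap*, had a log2 fold change of at least 1. Another 8 lay between 0.5 and 1, and 13 lay below 0.5. Their median of 0.43 was below the median of 0.58 over all genes called higher. *Grn* was surpassed by 94 of the 14637 genes tested, *Ctsh* by 365, *Psap* by 549 and *Atp6v1d*, the next in order among the called genes, by 1238. Without IRF4-RV replicate 2, 16 of the 45 genes were called, 15 higher and 1 lower. The lower gene was then *Cd63*, and the calls of *Tfeb*, *Ctsc* and *Gaa* were lost. The higher genes lost were *Ctsa*, *Lamp1*, *Npc2*, *Man2b1*, *Neu1*, *Ppt1*, *Atp6ap2*, *Atp6v0a1* and *Atp6v0d1*, all with log2 fold changes below 0.5. The 14 genes called higher under all 11 alternative settings were *Grn*, *Psap*, *Gla*, *Smpd1*, *Ctsh*, *Lgmn*, *Ctsb*, *Ctss*, *Npc1*, *Scarb2*, *Lamp2*, *Atp6v1d*, *Atp6v1a* and *Atp6v0c*.

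**Figure D1:**
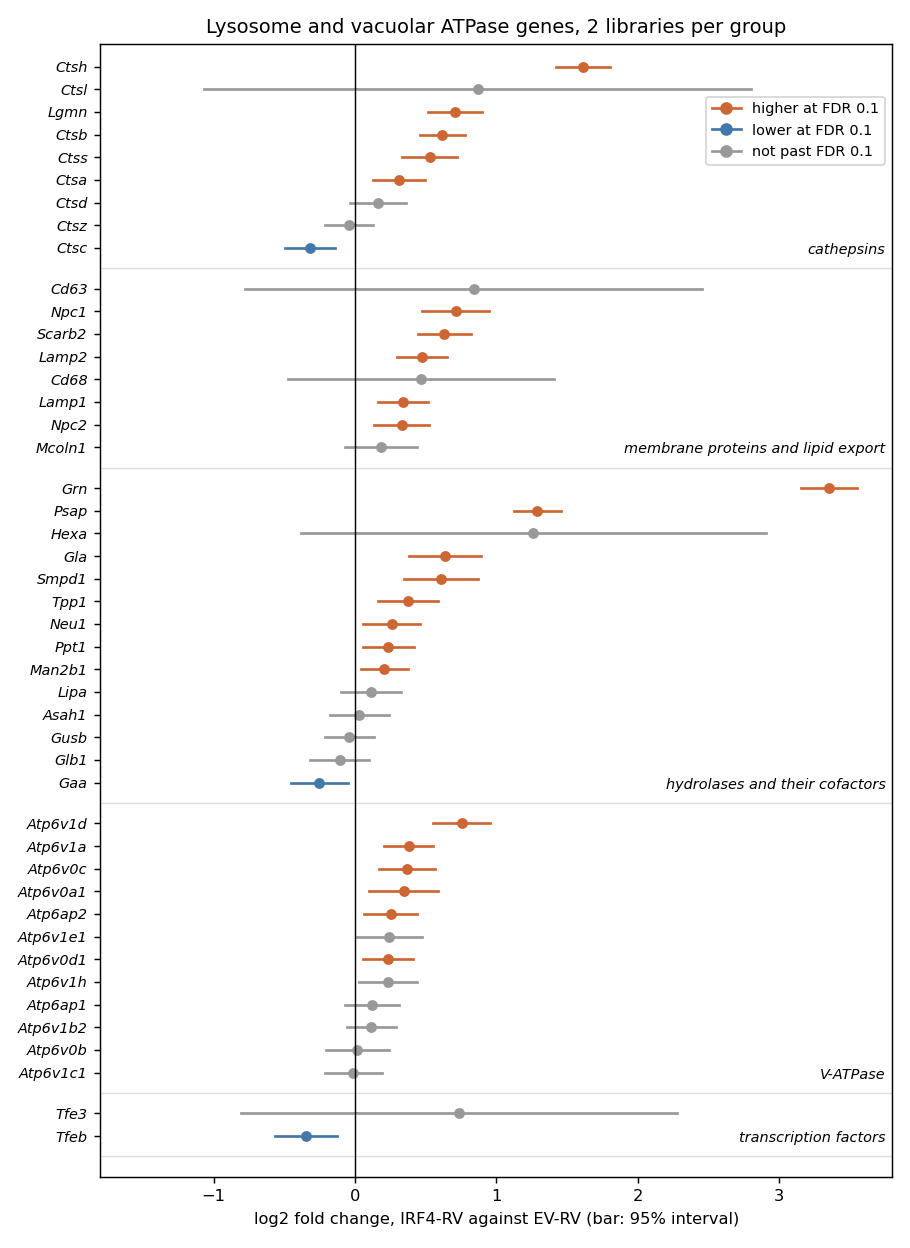
The log2 fold change of each of the 45 genes, IRF4-RV against EV-RV (x axis), by group of genes (y axis), with points for the estimate, bars for its 95% interval and colors for the call at an FDR of 0.1. *Grn* at 3.35, *Ctsh* at 1.61 and *Psap* at 1.29 stand to the right of the other called genes, and *Ctsl*, *Hexa*, *Cd63*, *Cd68* and *Tfe3* have wide intervals that include 0.

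To show what lies in front of these genes, RefSeq promoters on GRCm38.p6 were read for the 38 members with an entry. The 250 bases before each RefSeq transcription start were taken. They were searched on both strands for the E-box CACGTG, for the CLEAR core TCACGTGA, which contains the E-box, for the IRF repeat GAAANNGAA and for the ETS-IRF composite GGAANNGAA. A gene with several starts was counted for a motif if any of its windows held a match. A match is a description of these letters and not evidence of binding. Printed sequences run 5′ to 3′ toward the start, with matches in capitals, and show the longest stretch of the window outside all exons of GENCODE M21, since several starts differ between the annotations.

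Among the hydrolases and cofactors, *Grn* and *Psap* changed most. *Grn* (ENSMUSG00000034708, chromosome 11, 102430315 to 102437048, plus strand on GRCm38) encodes progranulin, a secreted and lysosomal precursor of the granulins that is known to bind prosaposin and travel to lysosomes with it. It was at 63.5 and 68.4 CPM in the EV-RV libraries and at 695 and 651 CPM in the IRF4-RV libraries. The groups lay far apart, at 66.0 ± 3.49 and 673 ± 31.3 CPM (SD, n = 2 each), and the level was 10.2-fold higher with IRF4-RV (log2 fold change 3.35, standard error (SE) 0.0850, edgeR adjusted p = 1.14e-06). *Psap* (ENSMUSG00000004207, chromosome 10, 60277627 to 60302597, plus strand) encodes prosaposin, the precursor of the saposins that present sphingolipids to their hydrolases. Its libraries read 229 and 227 CPM with EV-RV and 569 and 547 CPM with IRF4-RV, a 2.45-fold higher level (log2 fold change 1.29, SE 0.0710, edgeR adjusted p = 2.27e-05). Within each group the *Psap* replicates were close, and the difference between the groups was many times their spread. When libraries were left out singly, the log2 fold change was between 3.28 and 3.41 for *Grn* and between 1.24 and 1.32 for *Psap*.

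The sequences before the starts of these 2 genes are shown because their levels changed most, and their whole windows held no match to any of the 4 motifs:
Grn (chr11:102430257-102430314, plus strand): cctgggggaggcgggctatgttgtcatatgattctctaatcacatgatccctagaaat
Psap (chr10:60277378-60277626, plus strand): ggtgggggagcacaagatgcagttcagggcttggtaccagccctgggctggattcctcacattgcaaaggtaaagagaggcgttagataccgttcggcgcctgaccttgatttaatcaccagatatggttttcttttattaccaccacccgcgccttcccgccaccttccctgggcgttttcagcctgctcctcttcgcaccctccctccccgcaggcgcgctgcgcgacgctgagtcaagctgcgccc

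*Gla* and *Smpd1* were among the other members that rose. *Gla* (ENSMUSG00000031266, chromosome X, 134588149 to 134601125, minus strand), alpha-galactosidase, was at 13.1 and 14.4 CPM with EV-RV and 20.3 and 22.6 CPM with IRF4-RV (log2 fold change 0.64, SE 0.110, edgeR adjusted p = 0.00509). *Smpd1*, acid sphingomyelinase, had 11.5 and 11.1 CPM against 16.2 and 18.3 CPM and rose by 0.61 in log2 units (SE 0.113, edgeR adjusted p = 0.00712). Both genes were low, and in both the lowest IRF4-RV library exceeded the highest EV-RV library. Smaller rises were called for *Tpp1*, a tripeptidyl peptidase, by 0.37, for the sialidase *Neu1* by 0.26, for the depalmitoylating thioesterase *Ppt1* by 0.24 and for the mannosidase *Man2b1* by 0.21. Their edgeR adjusted p-values were 0.0211, 0.0696, 0.0679 and 0.0774. *Gla* was the 1 member with 2 matches to the CLEAR core, at -228 to -221 and at -195 to -188 from its start, a stretch that is also annotated as an exon of the neighboring gene *Hnrnph2* on the other strand. The call for *Neu1* was lost with DESeq2, library size only, an FDR of 0.05 and any 1 library but EV-RV replicate 1 left out, and that for *Ppt1* with library size only, an FDR of 0.05 and any 1 library but EV-RV replicate 2 left out. The call for *Man2b1* was lost with DESeq2, library size only, no filter, an FDR of 0.05 and any 1 library left out. That for *Tpp1* was lost without IRF4-RV replicate 1.

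*Gaa* (ENSMUSG00000025579, chromosome 11, 119267887 to 119285454, plus strand), the acid glucosidase that degrades glycogen in lysosomes, was the 1 hydrolase called lower. It read 48.3 and 49.9 CPM with EV-RV and 39.8 and 42.7 CPM with IRF4-RV and fell by 0.25 in log2 units (SE 0.0859, edgeR adjusted p = 0.0751). The call was lost with DESeq2, no filter, an FDR of 0.05 and any 1 library left out. Several hydrolases well above the detection limit did not pass the test. *Gusb*, beta-glucuronidase, had 228 and 247 CPM with EV-RV and 228 and 235 CPM with IRF4-RV, and the 95% interval of its log2 fold change was -0.21 to 0.13. *Glb1*, beta-galactosidase, had 75.6 and 82.4 CPM against 69.5 and 77.2 CPM, with an interval of -0.32 to 0.10. For both genes the groups overlapped. For acid ceramidase (*Asah1*) the interval was -0.18 to 0.24 and for acid lipase (*Lipa*) -0.10 to 0.33. All 4 intervals lay between -0.32 and 0.33.

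The cathepsins and related proteases of the lysosome were called higher in 5 of 9 cases, against 16.0% of all genes tested. *Ctsh* (ENSMUSG00000032359, chromosome 9, 90054152 to 90076089, plus strand), a cysteine protease that acts as an aminopeptidase, was at 29.0 and 29.5 CPM with EV-RV and 86.7 and 92.2 CPM with IRF4-RV. This was a 3.06-fold rise (log2 fold change 1.61, SE 0.0834, edgeR adjusted p = 1.66e-05) with no overlap between the groups. *Lgmn* (ENSMUSG00000021190, chromosome 12, 102394084 to 102439813, minus strand), an endopeptidase that cleaves after asparagine and activates cathepsins, went from 66.6 ± 4.50 to 109 ± 1.50 CPM (SD, n = 2 each). Its libraries read 63.5 and 69.8 CPM and 109.9 and 108 CPM, and the log2 fold change was 0.71 (SE 0.0818, edgeR adjusted p = 7.91e-04). *Ctsb* (ENSMUSG00000021939, chromosome 14, 63122462 to 63145923, plus strand), a cysteine protease, had 189 and 196 CPM with EV-RV and 293 and 297 CPM with IRF4-RV (log2 fold change 0.62, SE 0.0696, edgeR adjusted p = 6.90e-04). In these 3 genes the replicates of a group were close to each other compared with the distance between the groups.

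*Ctss* (ENSMUSG00000038642, chromosome 3, 95526786 to 95556403, plus strand), which trims the invariant chain of MHC class II in antigen presenting cells, was at 68.3 and 75.8 CPM with EV-RV and 103 and 104 CPM with IRF4-RV. It rose by 0.53 in log2 units (SE 0.0828, edgeR adjusted p = 0.00343), and the groups did not overlap. *Ctsa*, a carboxypeptidase that also protects NEU1 and GLB1, rose by 0.31 (edgeR adjusted p = 0.0261). Its exons overlap those of *Pltp* over 10.5% of their length, and since the use of strand in the counting is not given in the sources used here, reads in such stretches are uncertain. The same holds for *Ctsb*, which overlaps *Fdft1* on the other strand over 12.8% of its exon length, for *Lamp1*, with *Grtp1* over 9.31%, and for *Atp6v0b*, with *Gm12841* over 11.8%.

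*Ctss* is shown with an IRF repeat at -21 to -13, the nearest to the start among the 5 members with that motif:
Ctss (chr3:95526536-95526785, plus strand): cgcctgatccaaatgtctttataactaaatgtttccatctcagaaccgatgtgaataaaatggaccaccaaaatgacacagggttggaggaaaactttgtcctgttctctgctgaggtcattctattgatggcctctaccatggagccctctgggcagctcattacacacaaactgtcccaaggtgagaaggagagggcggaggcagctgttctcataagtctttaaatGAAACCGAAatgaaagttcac

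*Ctsc* (ENSMUSG00000030560, chromosome 7, 88278085 to 88310888, plus strand), the dipeptidyl peptidase that activates serine proteases of granules, went the other way. It was at 124 and 133 CPM with EV-RV and 103 and 104 CPM with IRF4-RV and fell by 0.32 in log2 units (SE 0.0764, edgeR adjusted p = 0.0220). The lowest EV-RV library was above both IRF4-RV libraries, and the call was lost without IRF4-RV replicate 2. *Ctsz*, a carboxypeptidase, read 188 and 189 CPM with EV-RV and 177 and 189 CPM with IRF4-RV, with overlapping groups and an interval of -0.21 to 0.13 for the log2 fold change. *Ctsd*, the aspartic protease, read 37.9 and 40.3 CPM against 43.5 and 44.1 CPM, with an interval of -0.03 to 0.36 (edgeR adjusted p = 0.220). *Ctsd* shares 34.4% of its exon length with *Gm49369* on the same strand, so that its count is uncertain.

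**Figure D2:**
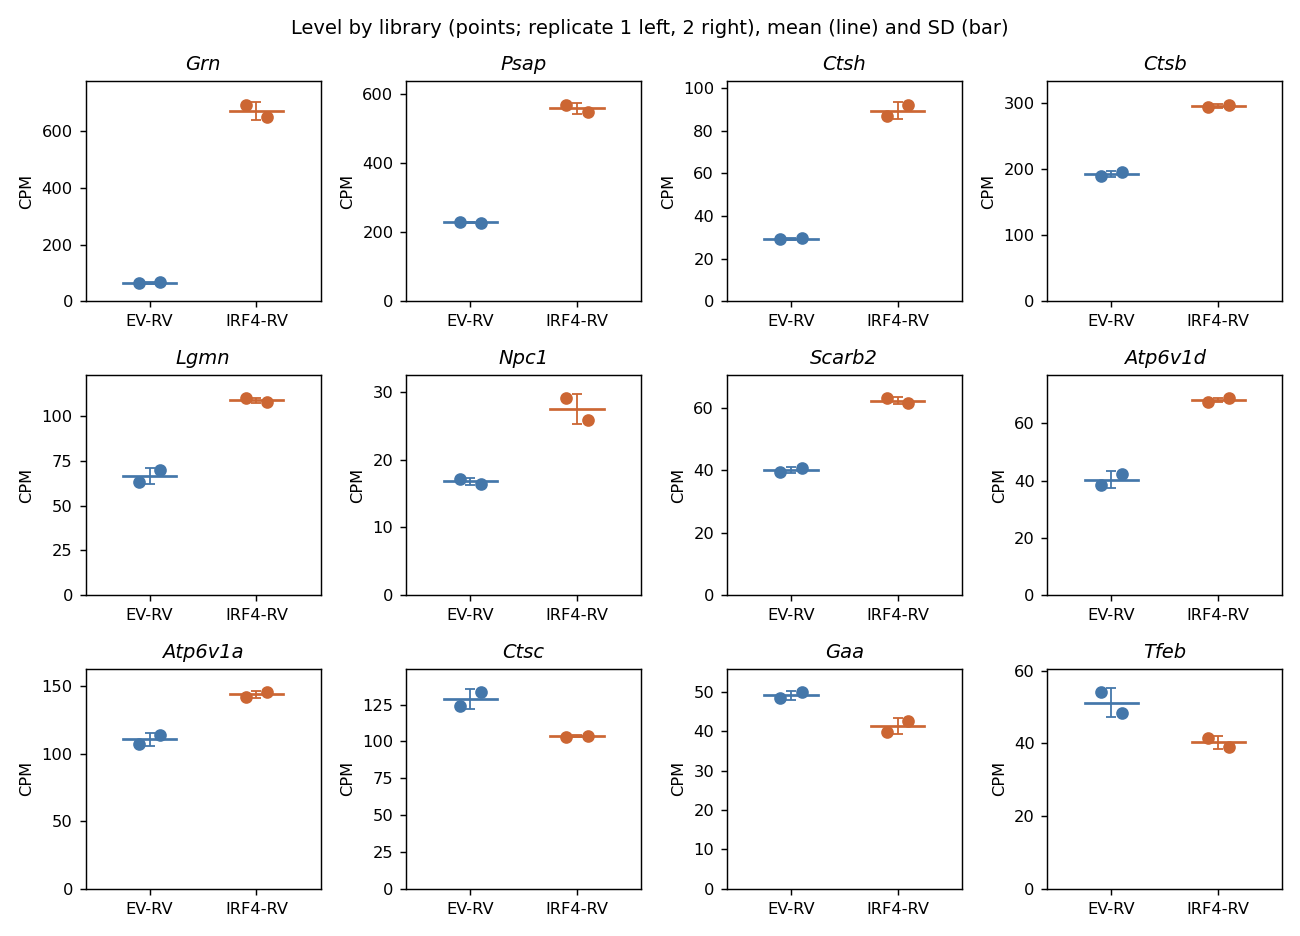
Level in CPM (y axis, from 0) of 12 of the 45 genes in each library of EV-RV and IRF4-RV (x axis), with points for libraries, lines for the mean and bars for the SD of the 2 libraries. In *Grn* the IRF4-RV libraries read 695 and 651 CPM above EV-RV libraries at 63.5 and 68.4 CPM, and in *Ctsc*, *Gaa* and *Tfeb* both IRF4-RV libraries lie below both EV-RV libraries.

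Proteins of the lysosomal membrane and the lipid exporters were called higher in 5 of 8 cases, against 16.0% of all genes tested. In edgeR's test 0 of the 8 were lower, at the FDR of 0.1 as well as at p under 0.05 before adjustment, and 0 were lower with DESeq2. NPC1 and NPC2 pass cholesterol out of the lysosome, NPC2 as the soluble carrier and NPC1 in the membrane. *Npc1* (ENSMUSG00000024413) was at 17.2 and 16.4 CPM with EV-RV and 29.1 and 26.0 CPM with IRF4-RV (log2 fold change 0.71, SE 0.103, edgeR adjusted p = 0.00229). *Npc2* read 352 and 394 CPM and 452 and 486 CPM and rose by 0.33 (SE 0.0841, edgeR adjusted p = 0.0264). Both genes were higher in each IRF4-RV library than in either EV-RV library.

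*Scarb2* (ENSMUSG00000029426, chromosome 5, 92441314 to 92506833, minus strand), the receptor that carries glucocerebrosidase to lysosomes, was at 39.5 and 40.7 CPM with EV-RV and 62.9 and 61.4 CPM with IRF4-RV (log2 fold change 0.63, SE 0.0812, edgeR adjusted p = 0.00132). *Lamp1* and *Lamp2* encode the heavily glycosylated proteins that line the lysosomal membrane. *Lamp2* (chromosome X, 38401357 to 38456454, minus strand) had 120.5 and 130.3 CPM against 173 and 176 CPM, a rise of 0.48 on the log2 scale (edgeR adjusted p = 0.00374). *Lamp1* (chromosome 8, 13159161 to 13175338, plus strand) had 145 and 154 CPM against 184 and 195 CPM, a rise of 0.34 (edgeR adjusted p = 0.0158). *Mcoln1*, the calcium channel of the lysosomal membrane, did not pass the test, at 11.2 and 12.1 CPM and 13.2 and 13.3 CPM with an interval of -0.07 to 0.44 for the log2 fold change.

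*Lamp1* is shown as the 1 member whose promoter held matches to both the E-box and the IRF repeat, with 4 E-boxes within 61 bases of the start and IRF repeats, read on the other strand, at -187 to -179 and -134 to -126:
Lamp1 (chr8:13158911-13159160, plus strand): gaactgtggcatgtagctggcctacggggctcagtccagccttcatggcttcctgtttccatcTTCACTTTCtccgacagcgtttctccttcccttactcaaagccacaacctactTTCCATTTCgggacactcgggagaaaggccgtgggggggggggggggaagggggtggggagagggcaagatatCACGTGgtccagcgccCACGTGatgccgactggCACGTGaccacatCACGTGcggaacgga

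The V-ATPase is built of the V1 domain, which hydrolyzes ATP in the cytosol, and the V0 domain, which carries protons across the membrane. Of its 12 members among the chosen genes 6 were called higher, against 16.0% of all genes tested. The log2 fold changes of the 12 ran from -0.01 to 0.76. By edgeR 0 were lower, before adjustment at p under 0.05 too, and DESeq2 likewise gave 0. *Atp6v1d* (ENSMUSG00000021114, chromosome 12, 78840725 to 78861638, minus strand), a subunit of the central stalk of V1, had the largest change. It was at 38.4 and 42.4 CPM with EV-RV and 67.6 and 68.7 CPM with IRF4-RV, which was 1.69-fold higher (log2 fold change 0.76, SE 0.0872, edgeR adjusted p = 7.91e-04). *Atp6v1a* (ENSMUSG00000052459, chromosome 16, 44085402 to 44139705, minus strand), the catalytic subunit, read 107 and 114 CPM and 142 and 145 CPM and rose by 0.38 (SE 0.0749, edgeR adjusted p = 0.00936). The other 4 subunits of V1 among the chosen genes did not pass the test. Of these, *Atp6v1b2*, the partner of the catalytic subunit in the V1 head, had an interval of -0.06 to 0.29 and *Atp6v1c1* of -0.21 to 0.19. *Atp6v1h*, with 73.3 and 83.9 CPM and 93.9 and 91.0 CPM, and *Atp6v1e1*, with 43.5 and 51.0 CPM and 56.7 and 55.2 CPM, were near the threshold, with edgeR adjusted p-values of 0.104 and 0.126. Both were called without EV-RV replicate 2 and with the replicate number as a block.

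In the V0 domain 3 of the 4 subunits among the chosen genes were called higher. *Atp6v0c*, the proteolipid of the proton ring, was at 141 and 159 CPM with EV-RV and 189 and 199 CPM with IRF4-RV (log2 fold change 0.37, edgeR adjusted p = 0.0177). *Atp6v0a1* and *Atp6v0d1* rose by 0.34 and 0.24 (edgeR adjusted p = 0.0515 and 0.0640). The call of *Atp6v0d1* was lost with no filter and with any 1 library left out, and that of *Atp6v0a1* with DESeq2 and with any 1 but EV-RV replicate 2. Both were lost with library size only and at an FDR of 0.05. In these 2 settings, or without IRF4-RV replicate 2, *Atp6v0c* was thus the 1 of these 4 subunits called. *Atp6v0b*, another proteolipid, had overlapping groups at 67.2 and 75.1 CPM and 67.8 and 76.2 CPM and an interval of -0.20 to 0.24. Of the accessory proteins, *Atp6ap2* rose by 0.25 (edgeR adjusted p = 0.0601) and *Atp6ap1* did not pass (edgeR adjusted p = 0.340). The call of *Atp6ap2* was lost with library size only, an FDR of 0.05 and any 1 library but EV-RV replicate 2 left out. Summed over the 4 chosen genes of V0, the level was 281.8 and 308.1 CPM with EV-RV and 342.7 and 364.4 CPM with IRF4-RV. For the 6 chosen genes of V1 the sums were 417.4 and 455.6 against 527.05 and 528.7 CPM. For both sets of genes the IRF4-RV sums were above the EV-RV sums. The remaining V-ATPase subunits, described below, are not in these sums.

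*Atp6v1a* is shown as the 1 V-ATPase member with the CLEAR core, at -132 to -125:
Atp6v1a (chr16:44139306-44139461, minus strand): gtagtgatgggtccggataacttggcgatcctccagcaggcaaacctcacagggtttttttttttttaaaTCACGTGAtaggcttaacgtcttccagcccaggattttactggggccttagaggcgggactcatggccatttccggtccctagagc

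Of the transcription factors, *Tfeb* was called lower. *Tfeb* (ENSMUSG00000023990, chromosome 17, 47737030 to 47792419, plus strand), the activator of the CLEAR network, was at 54.0 and 48.3 CPM with EV-RV and 41.5 and 39.0 CPM with IRF4-RV. It fell by 0.35 in log2 units (SE 0.0939, edgeR adjusted p = 0.0336), and both IRF4-RV libraries were below both EV-RV libraries. The call was lost without EV-RV replicate 1 and without IRF4-RV replicate 2, with the log2 fold change between -0.42 and -0.27 over the libraries left out. These counts measure the transcript, and the location and activity of the protein were not measured.

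*Tfe3* and 4 other members, *Ctsl*, *Hexa*, *Cd63* and *Cd68*, had a mean below 5 CPM, and none of the 5 passed the test. *Cd63*, a tetraspanin of late endosomes, was at 2.04 and 4.44 CPM with EV-RV and 1.65 and 9.86 CPM with IRF4-RV. *Ctsl*, an endopeptidase, was at 0.480 and 1.08 CPM and 0.295 and 2.53 CPM, and *Tfe3* at 0.210 and 0.381 CPM and 0.236 and 0.742 CPM. *Hexa*, a subunit of beta-hexosaminidase, was at 0.120 and 0.349 CPM and 0.295 and 0.824 CPM. In these 4 genes replicate 2 was above replicate 1 in both groups. IRF4-RV replicate 2 was the highest library, and the IRF4-RV replicates differed by more than the group means did. Summed over 10 stromal markers the level was 48.5 and 91.0 CPM with EV-RV and 48.1 and 224.9 CPM with IRF4-RV, highest in the same library and mostly from *Col1a1*, *Col1a2*, *Col3a1* and *Cxcl12*, while *Dcn* and *Lum* were counted at most 2 times. According to the study's methods, the line was first established on a layer of stromal cells and later grew without them. The part of stromal RNA in these 4 genes and in the other members was not tested. Without IRF4-RV replicate 2, *Cd63* was called lower, at -0.96 on the log2 scale. *Cd68*, which is abundant in macrophages, was at 0.629 and 0.476 CPM and 0.738 and 0.797 CPM. The counts table holds 3276 identifiers numbered above the highest in the annotation used here, and their overlap with these genes was not checked, so that a low count does not show that the gene was silent.

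**Figure D3:**
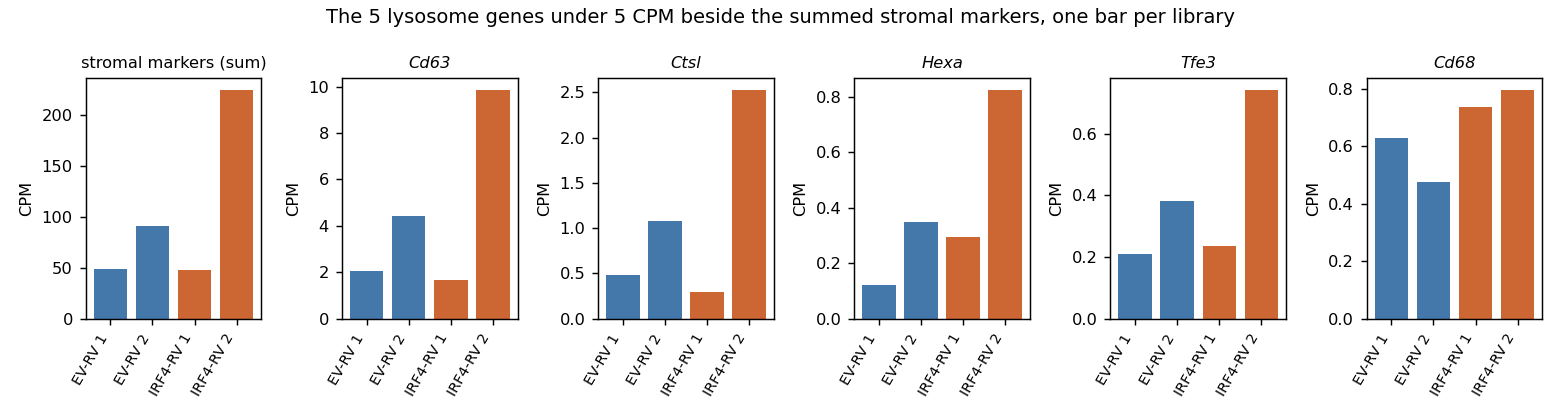
Level in CPM (y axis, from 0, a scale for each panel) of the summed stromal markers and of the 5 genes with a mean below 5 CPM, with a bar for each library (x axis). The stromal sum is 224.9 CPM in IRF4-RV replicate 2 and at most 91.0 CPM in the other libraries, and *Cd63*, *Ctsl*, *Hexa* and *Tfe3* are also highest in that library.

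Among the genes that rose most, *Grn* and *Psap* were higher in IRF4-RV replicate 1 than in replicate 2, *Ctsh* read 86.7 and 92.2 CPM, and all 3 were called without IRF4-RV replicate 2. Other cell types were checked by their markers, and their part in the results was not tested beyond these counts. Of 11 macrophage and monocyte markers, *Adgre1*, *Mertk*, *Cd163*, *Marco* and *Vsig4* had 0 counts in every library, and *Csf1r* had at most 3. Their sum was 27 and 32 counts in EV-RV libraries and 266 and 244 in IRF4-RV libraries, of which *Mrc1* gave 24, 23, 260 and 230. Of 11 neutrophil granule markers, *Camp*, *Ngp*, *S100a8* and *S100a9* had 0 counts in every library, and the sum went from 8 and 8 to 74 and 71, mostly from *Ly6g*. The 10 T and NK cell markers gave sums of 688 and 666 counts in EV-RV libraries but 460 and 510 in IRF4-RV libraries, mostly from *Trac*. The sum of the B progenitor markers was 3476 and 3644 CPM with EV-RV and 2451 and 2449 CPM with IRF4-RV, in which *Vpreb1* went from 611.7 and 718.6 to 230.4 and 243.5 CPM and *Igll1* from 893.9 and 1013 to 369.4 and 406.6 CPM. The part of this shift in the lysosomal differences was not tested.

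The 45 genes together took 0.364% and 0.372% of all counts in the EV-RV libraries and 0.502% in each IRF4-RV library. Their summed level was 3461 and 3683 CPM with EV-RV and 5155 and 5212 CPM with IRF4-RV, 1.45-fold higher. *Grn* alone gave 37.6% of the difference in summed CPM, which is not scaled to gene length, and *Grn* with *Psap* 58.1%. Without these 2 genes the sum of the other 43 was 3168 and 3387 CPM with EV-RV and 3891 and 4015 CPM with IRF4-RV, 1.21-fold higher. By group the sum was 1.91-fold higher for hydrolases and cofactors, most of it from *Grn* and *Psap*, 1.31-fold for membrane proteins, 1.29-fold for cathepsins and 1.19-fold for the V-ATPase. Without *Grn* and *Psap* the other 12 hydrolases and cofactors summed to 785.3 and 827.04 CPM with EV-RV and to 859.0 and 876.2 CPM with IRF4-RV, 1.08-fold higher.

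To compare levels between genes, CPM were divided by the length in kilobases of all annotated exons of a gene, joined over its transcripts. A single transcript can be shorter than this, so the order below depends on the annotation. *Npc2* had 373 CPM with EV-RV over 5438 bases of exon, and *Ctsz* 189 CPM over 1441 bases. On this scale *Ctsz* was the highest of the 45 genes in EV-RV cells at 131 CPM per kb. It was followed by *Psap* at 83.1, *Npc2* at 68.6, *Lamp1* at 55.9 and *Ctss* at 53.1 CPM per kb. *Grn* was in place 17 at 19.0 CPM per kb. In IRF4-RV cells *Psap* was the highest at 203 CPM per kb, *Grn* next at 194 and in place 3 *Ctsz* at 127 CPM per kb. In the IRF4-RV libraries *Psap* read 207 and 199 CPM per kb and *Grn* 200.01 and 187, so that these neighbors in the order did not differ beyond their spread. The lowest of the 40 genes above 5 CPM on this scale was *Npc1*, at 1.48 CPM per kb with EV-RV over 11317 bases of exon.

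**Figure D4:**
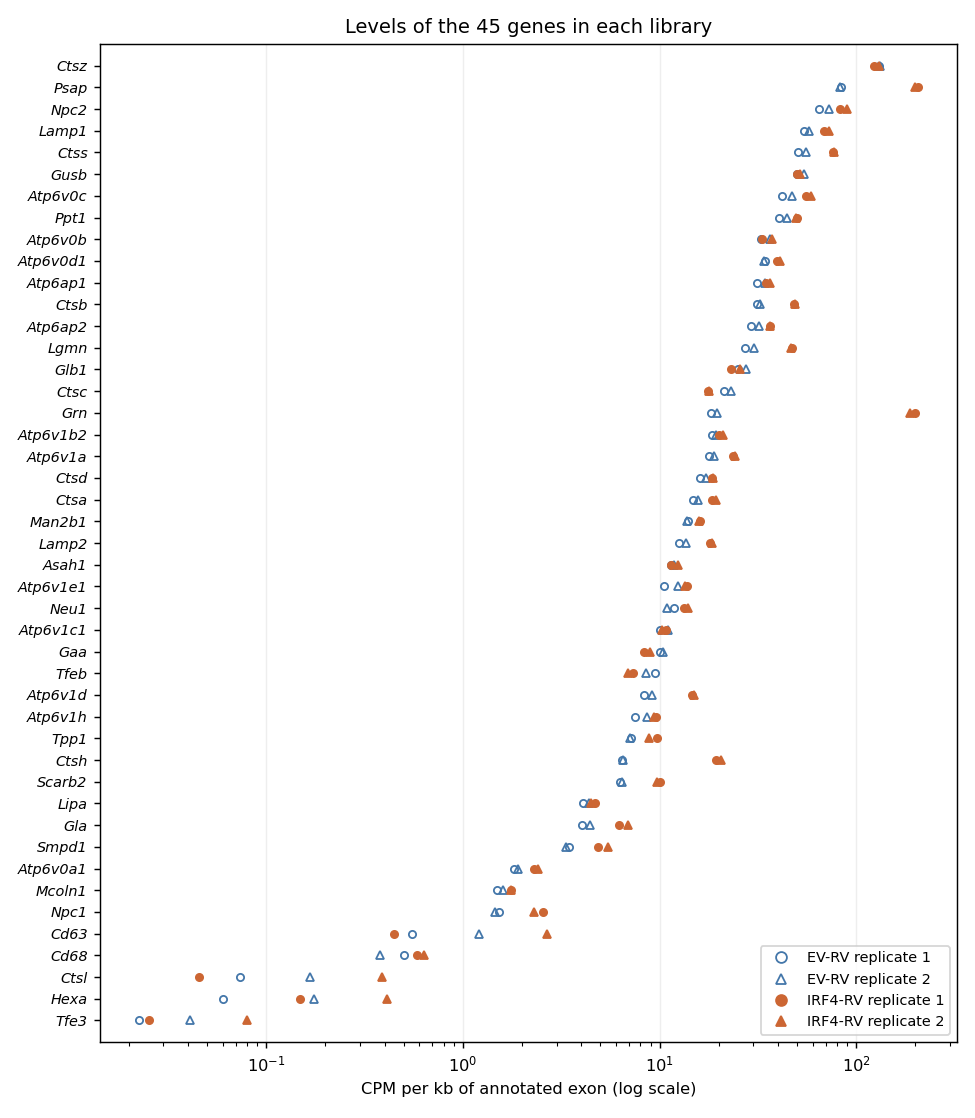
Level in CPM per kb of exon (x axis, log scale) of the 45 genes (y axis, ordered by the EV-RV mean), with open symbols for EV-RV libraries, filled symbols for IRF4-RV libraries, circles for replicate 1 and triangles for replicate 2. The scale depends on the annotated exons of each gene. On it *Grn* moves from 19.0 to 194 CPM per kb, past all genes but *Psap*, and the replicates of the lowest genes are spread wide.

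Over the wider pathway, a list of 95 other lysosome genes gave 80 genes tested, of which 28 were called higher and 9 lower (46.2% in either direction, against 29.7% of all genes tested), with a median log2 fold change of 0.16. Other hydrolases and cofactors held 13 higher and 2 lower genes of 29 tested, and other membrane proteins 11 higher and 2 lower of 21. The largest rises were in *Slc29a3*, a nucleoside transporter of the lysosomal membrane, by 1.48, and in *Gnptab*, which encodes the enzyme that puts the mannose phosphate sorting tag on hydrolases, by 1.29. *Gnptab* read 71.1 and 58.9 CPM with EV-RV and 167 and 151 CPM with IRF4-RV (SE 0.108, edgeR adjusted p = 1.63e-04). The carboxypeptidase *Scpep1* and the sulfatase *Galns* rose by 0.89 and 0.87. In the opposite direction, the endolysosomal cation channel *Tpcn1* fell by 1.48, from 49.4 and 45.8 CPM to 17.9 and 16.3 CPM (SE 0.0987, edgeR adjusted p = 4.79e-05). *Rragd* and *Rragb*, encoding GTPases that dock mTORC1 on lysosomes, fell by 1.05 and 0.68, the acid phosphatase *Acp5* by 0.81 and the sorting adaptor *Gga2* by 0.70.

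The remaining V-ATPase subunits held 1 higher and 1 lower gene of 8 tested (25%, against 29.7% of all genes called). These were *Atp6v0e*, with 97.7 and 119 CPM against 168 and 177 CPM (log2 fold change 0.67, edgeR adjusted p = 0.00282), and *Atp6v0a4*, with 22 and 26 counts in EV-RV libraries and 1 and 9 in IRF4-RV libraries, both named after their values were seen. Among the 11 genes tested of the list of mTORC1 docking genes and factors related to TFEB, 3 were called (27.3%). Of these 1 was higher, *Fnip1* by 0.41, which was also named after its value was seen, and 2 were lower, *Rragd* and *Rragb*. *Mitf* and *Tfec*, the relatives of *Tfeb* and *Tfe3*, were counted at most 13 times and were not tested. Of 8 sorting genes tested, *Gnptab* was higher and *Gga2* lower (25%). In these 3 lists the share called was below that of all genes. Of 3 cystatins, the inhibitors of cysteine cathepsins, *Cst3* rose by 0.34 and *Cst7* fell by 0.61 (edgeR adjusted p = 0.0252 and 0.00211), both again named after their values were seen.

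**Figure D5:**
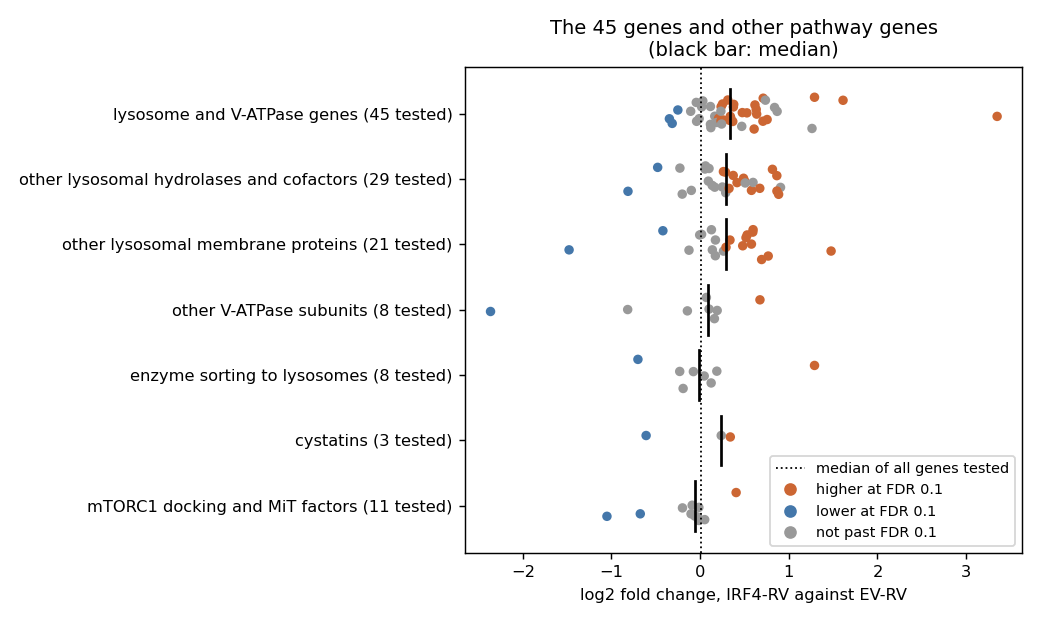
The log2 fold change (x axis) of the 45 genes and of 6 lists of other pathway genes (y axis), with a point for each gene tested, colors for the call at an FDR of 0.1, black bars for list medians and a dotted line for the median of all genes. The median is 0.33 for the 45 genes, 0.29 for both the other hydrolases and the other membrane proteins, and -0.06 for the mTORC1 docking list.

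Across the 38 members with a promoter entry, the E-box was found in 11 (28.9%), in 9.75% of all genes tested that have an entry and in 6.86% of all genes with one. The CLEAR core was found in 5 members (13.2%), *Atp6v1a*, *Ctsa*, *Ctsd*, *Gla* and *Mcoln1*, and in 1.88% of genes tested. Of these 5, *Atp6v1a*, *Ctsa* and *Gla* were called higher and *Ctsd* and *Mcoln1* were not called. By call, the E-box was in 5 of the 21 members called higher and in 6 of the other 17. The IRF repeat was found in 5 members (13.2%), *Atp6v0c*, *Atp6v1d*, *Ctss*, *Lamp1* and *Ppt1*, and in 7.55% of genes tested. These 5 were called higher, and without IRF4-RV replicate 2 *Lamp1* and *Ppt1* were not. Of all 698 genes tested with the repeat 28.9% were called higher, against 18.9% of the 9244 tested genes with an entry. The ETS-IRF composite was found in 1 member, *Scarb2*, and in 7.29% of genes tested. These shares are descriptions of letters in a window of 250 bases, for genes and motifs chosen with earlier results of these data known. There was no entry for 7 members, among them *Ctsh*, *Ctsb* and *Npc1*.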

How the data were processed

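Counts per gene from RNAseq of transduced T8 cells were analyzed, 2 libraries each of EV-RV and IRF4-RV, grouped by the sample titles. The authors deposited raw counts per gene, without normalization, for 55359 identifiers. According to the submitters' processing notes, reads were checked with FastQC (0.11.2), aligned to GRCm38 with STAR (2.4.0j) and counted with featureCounts, and DESeq2 (1.22.1) was used. Strand and multiple alignment settings are not given in the sources used here. Symbols and coordinates came from GENCODE M21, which matched 52083 identifiers. The other 3276 are all numbered above its highest identifier, although the study's methods name an Ensembl annotation older than M21, so the annotation behind the counts is not known.

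Genes passing edgeR's filterByExpr were tested in R 4.3.3 with edgeR 4.0.16 (TMM factors, quasi-likelihood F test, Benjamini-Hochberg adjustment over 14637 genes, FDR of 0.1). Standard errors and 95% intervals came from that test. On 10 simulated data sets with 200 of 14637 genes changed, it recovered 88% of 2-fold and 99.1% of 4-fold changes, and 7.44% of calls were false. Changes below 2-fold were not simulated, so the recovery of the smaller differences reported here is not known. In the data 4349 genes were called, far more than the 200 changed in simulation, so the share of false calls may differ. Between replicates the chi-square divided by its degrees of freedom was 15.5 for EV-RV and 14.3 for IRF4-RV, above sampling noise.

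All 45 genes are named. Other lysosome genes were named as the 5 largest rises and 5 largest falls among called genes averaging 50 or more normalized counts whose groups did not overlap, and 1 of these is not reported here. The genes, lists and motifs were chosen with earlier results of these data known. Alternatives were DESeq2 1.42.0, its size factors in edgeR, library size only, no filter, at least 1 CPM in 2 libraries, a replicate block, an FDR of 0.05 and leaving out each library.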

Additional observations from a re-analysis of the deposited data

How the results depend on the processing

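With each library left out in turn, between 16 and 25 of the 45 genes were called, 15 to 23 higher and 1 to 2 lower, and their median log2 fold change was 0.26 to 0.36. The fewest calls and the lowest median came without IRF4-RV replicate 2, where 9 of the 24 higher calls and all 3 lower calls were lost and *Cd63* turned to -0.96 (it was 1.59 without IRF4-RV replicate 1). The other alternatives called 21 genes (library size only), 23 (DESeq2), 20 (FDR of 0.05) and 26 (no filter). With library size only, which moved the split over all genes to 1743 higher and 2867 lower, the median was 0.242 for the 45 genes and -0.083 for all genes. With the replicate block, 31 of the 45 genes were called (28 higher, 3 lower) and 6394 of all genes. Deviations of same-numbered libraries correlated at 0.26 over genes. With only 2 pairs and no label that ties them, whether same-numbered libraries were prepared together is not known. Of the 45 genes, 14 higher and 0 lower calls held under all 11 alternatives. Fold changes of genes below 5 CPM are limited by depth and by the spread between replicates.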
